A study of Rattus norvegicus with 8 samples.

Results

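The miR-26 family was followed in bone around titanium implants of hyperlipidemic and normal rats. Its rows were taken from the deposited miRNA table by name, as rno-miR-26a or rno-miR-26b with any copy number or arm, which found 4 rows (rno-miR-26a-5p, rno-miR-26a-3p, rno-miR-26b-5p and rno-miR-26b-3p, written without the prefix below) among 604 catalogued rat miRNAs and 974 rows in all. The study sequenced small RNA from the femurs of male Wistar rats of 12 to 13 weeks, with 4 libraries from hyperlipidemic rats, fed a high-fat diet for 8 weeks, and 4 from normal rats, fed a normal diet for as long. All rats carried implants in the left and right femoral shaft, and on day 10 after implantation a rim of 1 mm of bone beside the metal was taken and stripped of muscle, so every library comes from wounded bone and none from bone without an implant. The labels do not say whether a library stands for a single rat or for pooled bone, so p-values measure the spread between these libraries.

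MiR-26a and miR-26b are small RNAs that bind messenger RNAs through the seed, bases 2 to 8 of the 5p arm, and lower the output of their targets. Their hairpins lie in genes of the Ctdsp family of small phosphatases and are made together with the host transcripts in many tissues. Targets described in human and mouse cells include Ezh2, a histone methyltransferase, Gsk3b, a kinase that restrains Wnt signalling, and Smad1, which carries bone morphogenetic protein signals. In cultured human mesenchymal stem cells miR-26a has been tied to both osteoblast and fat cell differentiation, and in mouse liver to insulin sensitivity on a high-fat diet. None of these targets was measured here.

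The mature sequences, from RefSeq (build GRCr8), are printed because the 5p arms share a seed and are told apart in sequencing by few bases, while the 3p arms do not share one. Capitals mark the seed, and all 4 rows were matched by name.
miR-26a-5p: uUCAAGUAauccaggauaggcu
miR-26b-5p: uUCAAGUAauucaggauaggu
miR-26a-3p: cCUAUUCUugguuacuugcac
miR-26b-3p: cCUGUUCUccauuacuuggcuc
Counted from 1 at the 5′ end of miR-26a-5p, which has 22 bases against 21 in miR-26b-5p, the 5p arms differ by C11U and C21U, and 19 of the 21 shared positions are the same. Between the 3p arms 14 of 21 shared positions are the same, and the difference A4G lies inside the seed. A mature sequence was found for 544 of the 604 catalogued rows, and no other row of these had the seed UCAAGUA, or its first 6 bases, in the same place. The other seeds, CUAUUCU of miR-26a-3p and CUGUUCU of miR-26b-3p, were each held by a single row.

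The Mir26a hairpin lies on chromosome 8 (GRCr8 chr8:127633048-127633137, plus strand, 90 bases) within the span of Ctdspl, and Mir26b on chromosome 9 (GRCr8 chr9:83425709-83425793, plus strand, 85 bases) within the span of Ctdsp1. The reference tables used here give no exons. In mouse and human miR-26a-5p is also made from a further hairpin in Ctdsp2, and the rat reference table lists Ctdsp2 on chromosome 7 but a single Mir26a. The deposited rows carry no position for these miRNAs, and the submitters' processing notes name another build, Rnor_6.0.

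Values are reads per 1000000 of the catalogued (rno-) class, written RPM, which the authors scaled apart from the class of predicted miRNAs. The reads behind the rno- scale, recovered from the step between low values, numbered 2643506 to 4809896 in hyperlipidemic and 990800 to 1748967 in normal libraries, so that values of hyperlipidemic libraries have less counting error. Markers of blood cells made up much of the signal. Erythroid, myeloid and lymphoid rows (miR-144, miR-451, miR-486, miR-223, miR-142, miR-150 and miR-342, 13 rows) held 34.4% to 53.1% of the rno- signal in hyperlipidemic and 14.2% to 38.5% in normal libraries. Normal replicates 3 and 4, at 18.5% and 14.2%, stood apart from the other libraries. This is a summed share, and the rows did not all move together. On the deposited scale the log2 fold, hyperlipidemic over normal, was above 0 for 2 erythroid rows and below 0 for 3. Of the myeloid rows 3 lay above 0 and 1 below, and of the lymphoid rows 2 above and 2 below. Erythroid miR-486 was highest in normal replicate 4, at 16264 RPM. MiRNAs of mesenchymal cells (miR-199 and miR-214) held 2.49% to 5.58% in hyperlipidemic and 3.36% to 7.11% in normal libraries. Of the 3 such rows tested, 1 had a log2 fold above 0 (miR-214-3p, 0.72) and 2 below (miR-199a-5p, -0.85, and miR-199a-3p, -0.14). The listed miRNAs of striated muscle (miR-1, miR-133, miR-206, miR-208 and miR-499) held at most 0.484% and 0.345%, and liver miR-122 at most 0.000338% and 0.000945%. MiR-1b, a relative of miR-1, was left out of the muscle list, so the muscle shares are too low. Its mean over the 8 libraries was 1213 RPM, against 941 RPM for miR-133a-3p, the highest listed row. No miRNA is known to mark bone alone, so the tissue label was checked only as far as the listed muscle and liver miRNAs were low.

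MiR-26a-5p was among the most abundant miRNAs of this bone, sixth of 604 catalogued rows by mean, and did not differ between the diets beyond the spread of the libraries. It stood at 29414, 21747, 20586 and 32898 RPM in hyperlipidemic libraries, against 24367, 26283, 31011 and 35747 RPM in normal libraries. Hyperlipidemic replicates 2 and 3 were the lowest of the 8 and normal replicate 4 the highest, and the groups overlapped. Hyperlipidemic libraries averaged 26161 ± 5959 RPM and normal libraries 29352 ± 5096 RPM (SD, n = 4 each). The fitted log2 fold, hyperlipidemic over normal on log2(RPM + 0.475), was -0.18 (SE 0.24, limma adjusted p = 0.679 over 696 miRNAs, with a threshold of 0.05), with a 95% interval of 0.611-fold to 1.28-fold. A catalogued read was worth 0.208 to 0.378 RPM in hyperlipidemic and 0.572 to 1.01 RPM in normal libraries. The added 0.475 RPM is thus more than 1 read in the former and less in the latter, and matters only for rare miRNAs. The direction of the miR-26a-5p fold turned when the values were rescaled without the blood-cell rows (log2 fold 0.16, SE 0.18).

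MiR-26b-5p, which carries the same seed, was lower than miR-26a-5p in each of the 8 libraries and differed little from library to library. It stood at 7583, 7407, 6807 and 9276 RPM in hyperlipidemic libraries, against 7955, 8016, 8528 and 6825 RPM in normal libraries. The lowest and the highest of the 8 values were both in hyperlipidemic libraries, so that the normal range lay inside the hyperlipidemic one. Hyperlipidemic libraries averaged 7768 ± 1059 RPM and normal libraries 7831 ± 718 RPM (SD, n = 4 each), and the log2 fold was -0.02 (SE 0.19, limma adjusted p = 0.960). The 95% interval ran from 0.733-fold to 1.33-fold, so a difference within these bounds could not be told from none. The sign of this fold was not stable: median-of-ratios scaling gave 0.25 (SE 0.18) and rescaling without the blood-cell rows 0.32 (SE 0.20), neither past the threshold.

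MiR-26b-3p, the other strand of the miR-26b hairpin, had the family's smallest p-value, without passing. It stood at 52.8, 37.5, 41.2 and 47.6 RPM in hyperlipidemic libraries, against 49.2, 82.4, 54.5 and 82.8 RPM in normal libraries. Normal replicates 2 and 4 were well above the other 6 libraries, and hyperlipidemic replicate 1 lay above normal replicate 1, so the groups overlapped. Hyperlipidemic libraries averaged 44.8 ± 6.81 RPM and normal libraries 67.2 ± 17.9 RPM (SD, n = 4 each). The log2 fold was -0.55 (SE 0.30, limma adjusted p = 0.337), with a 95% interval of 0.423-fold to 1.10-fold. These values rest on 254, 118, 109 and 159 reads in hyperlipidemic and 86, 115, 54 and 129 reads in normal libraries. In the authors' deposited table its log2 fold is -0.62 with p = 0.0367 and an adjusted p of 0.319, and all 4 rows are given there as unchanged.

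MiR-26a-3p, the passenger strand of miR-26a, was close to the limit of detection. It stood at 2.29, 0.95, 0.38 and 3.59 RPM in hyperlipidemic libraries, against 2.86, 6.45, 2.02 and 1.28 RPM in normal libraries. These are 11, 3, 1 and 12 reads in hyperlipidemic and 5, 9, 2 and 2 reads in normal libraries, and the groups overlapped widely. The log2 fold was -0.72 (SE 0.78, limma adjusted p = 0.621), with a 95% interval of 0.179-fold to 2.06-fold, so that no difference was detectable at this depth. With quantile normalization the log2 fold was -1.77 (SE 0.74, 95% interval -3.43 to -0.11, limma unadjusted p = 0.0387, adjusted p = 0.213), and with 10 times the pseudocount it was -0.25 (SE 0.29, limma adjusted p = 0.647). Its mean of 2.48 RPM was just inside the filter for testing, which asked for a mean of 2.375 RPM. It passed that filter through the normal libraries, where its mean was higher, so nothing is read from the sign of its fold.

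**Figure D1:**
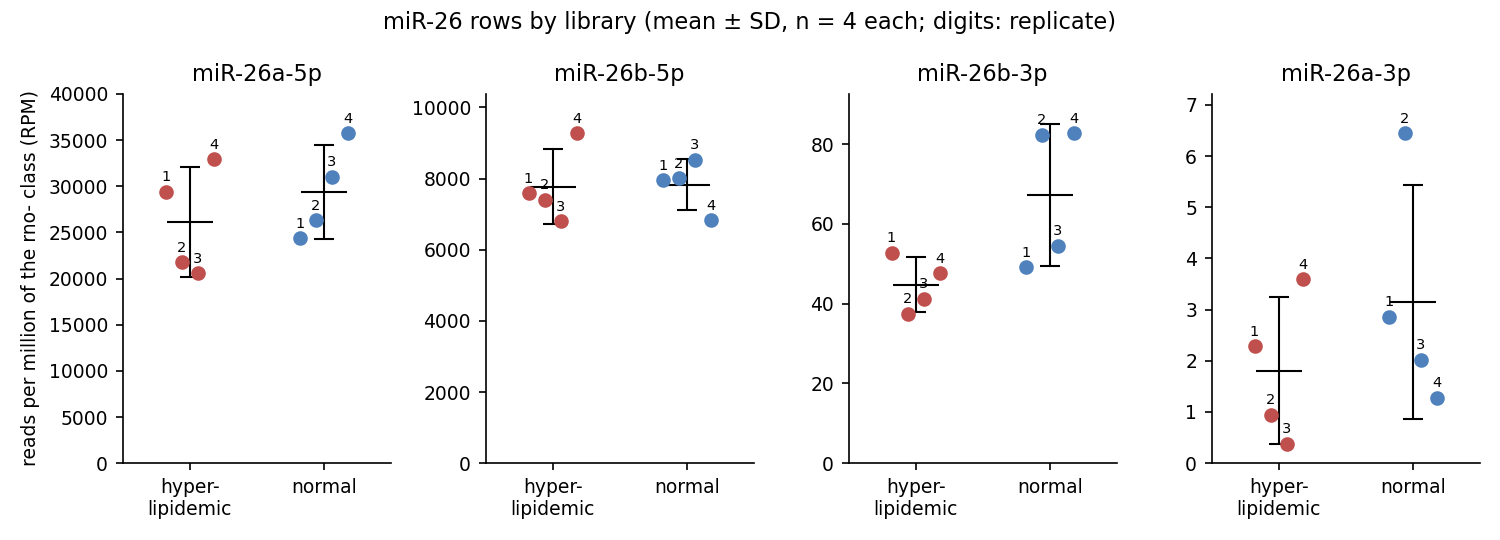
Values of the 4 miR-26 rows in each library, in RPM on axes that start at 0, with group means and SD (n = 4 each) and digits for replicate numbers. The groups overlap in all 4 panels, and normal replicates 2 and 4 are the highest for miR-26b-3p (82.4 and 82.8 RPM).

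None of the 4 miR-26 rows passed an adjusted p of 0.05 by limma, where 0.718% of all 696 miRNAs tested did. On the deposited scale none reached an unadjusted p under 0.05 either, where 17.8% of all tested did. None passed by voom on the recovered reads, which called no miRNA, and among the alternatives run only quantile normalization gave a miR-26 row an unadjusted p under 0.05 (miR-26a-3p). The log2 folds of miR-26a-5p, miR-26b-5p and miR-26b-3p were below 0 on the deposited scale, and the median over the 396 catalogued miRNAs tested was -0.20. MiR-26a-3p is left out here, since it passed the filter through the normal libraries. Of these 396, 51.3% had a lower fold than miR-26a-5p, 60.6% than miR-26b-5p and 27.3% than miR-26b-3p. With median-of-ratios scaling the median over catalogued miRNAs was 0.05, and the folds of miR-26a-5p (0.085) and miR-26b-5p (0.25) were above 0 while that of miR-26b-3p (-0.29) was not.

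The 5p arms were steadier across the 8 libraries than most catalogued miRNAs. The SD of log2(RPM + 0.475) over all 8 libraries was 0.15 for miR-26b-5p and 0.29 for miR-26a-5p, beside a median of 0.60 over the 396 tested. MiR-26b-5p had the second smallest SD of the 396, after miR-505-3p at 0.15, and miR-26a-5p the 26th smallest. Abundant miRNAs have less counting error, so the comparison was repeated among the 40 catalogued miRNAs with the highest means, a choice made after seeing the data. There miR-26b-5p had the smallest SD and miR-26a-5p the 5th smallest, beside a median of 0.51. These ranks depend on the scale. With median-of-ratios scaling miR-26b-5p had an SD of 0.19, rank 4 of 396 and 1 of the 40, and miR-26a-5p an SD of 0.26, rank 21 of 396 and 4 of the 40. Without the blood-cell rows the order of the pair turned: the SD of miR-26b-5p was 0.27, rank 29 of 396 and 8 of the 40, and that of miR-26a-5p 0.17, rank 4 of 396 and 2 of the 40. The ranks describe these libraries and were not tested.

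Counting error alone would give an SD of 0.0063 for miR-26a-5p and 0.012 for miR-26b-5p on the log2 scale, so nearly all of their spread lay between the libraries and not in the count of reads. For miR-26b-3p the counting SD was 0.14 of an observed 0.42. For miR-26a-3p the counting SD was 0.86 and the observed SD 0.94. The counting SD leaves out the added 0.475 RPM, which shrinks the spread of values as low as these. The 2 values are therefore not on the same scale, and the part of counting error in its spread was not settled.

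**Figure D2:**
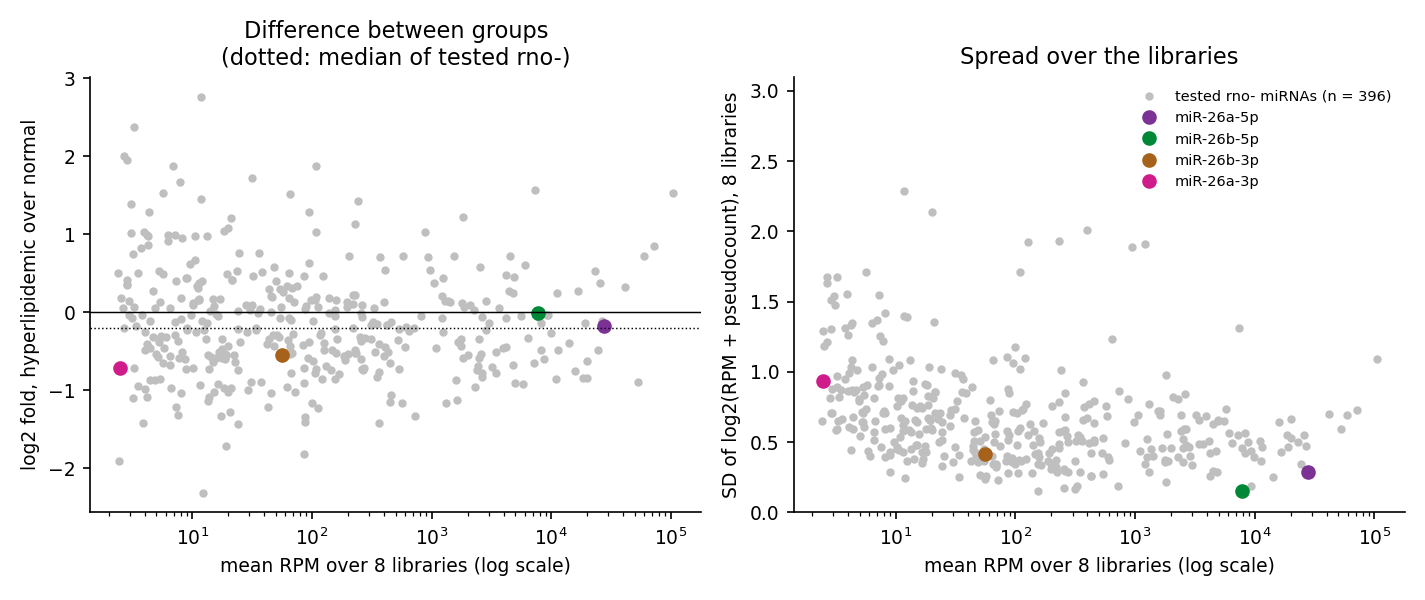
Log2 fold of hyperlipidemic over normal libraries (left) and SD of log2(RPM + 0.475) over the 8 libraries (right) against mean RPM on a log axis, for the 396 catalogued miRNAs tested (grey) and the 4 miR-26 rows (coloured). MiR-26b-5p and miR-26a-5p sit near the median fold of -0.20 (dotted) and at the lower edge of the spread, with SDs of 0.15 and 0.29.

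The balance of the family's members was examined as ratios within a library, which no scaling of whole libraries can move. The ratio of miR-26a-5p to miR-26b-5p was 3.88, 2.94, 3.02 and 3.55 in hyperlipidemic libraries, against 3.06, 3.28, 3.64 and 5.24 in normal libraries. Normal replicate 4 had the highest ratio and the other 7 libraries ran from 2.94 to 3.88. The mean log2 ratio was 1.73 ± 0.19 in the hyperlipidemic and 1.89 ± 0.34 in the normal group (SD, n = 4 each), a difference of -0.16 that did not pass (exact permutation, two-sided: p = 0.486, 0.486 after adjustment over 4 measures). Without normal replicate 4 the difference was 0.0029. The smallest p that 4 against 4 libraries allow is 0.0286. A ratio of reads between different miRNAs also holds the preferences of adapter ligation, so it is not a ratio of molecules.

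Both hairpins gave almost all their reads from the 5p arm, and miR-26a far more so. Over the 8 libraries the miR-26a rows held 539987 reads of the 5p and 45 of the 3p arm, and the miR-26b rows 152966 and 1024. The 3p arm was thus 0.0083% of the miR-26a reads and 0.665% of the miR-26b reads. Among 135 catalogued hairpins with both arms in the table under the same name and at least 1000 reads, the share of the minor arm had a median of 2.01%. Hairpins whose arms differ in copy number in the name, such as let-7a-5p and let-7a-1-3p, were left out. On summed reads, in which deeper libraries weigh more, the share of miR-26a was the third smallest of these and that of miR-26b the 41st. By the mean share over the 8 libraries, each weighing the same (added after seeing the data), miR-26a (0.0089%) ranked 4 and miR-26b (0.722%) 43 of the 135. Although miR-26a-5p was the more abundant 5p arm, miR-26b-3p was the more abundant 3p arm in each of the 8 libraries. MiR-26a-5p reads from any further hairpin could not be told apart from those of Mir26a, and a 3p arm of such a hairpin was not analysed here.

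For miR-26b the 3p share was 0.692%, 0.503%, 0.602% and 0.511% in hyperlipidemic libraries, against 0.614%, 1.02%, 0.635% and 1.20% in normal libraries. Normal replicates 2 and 4 lay above the other 6, with exact 95% binomial intervals of 0.841% to 1.22% and 1.00% to 1.42%, which cover counting error only. The highest upper bound among the other 6 was 0.828%, in normal replicate 3. The log2 ratio of 5p to 3p was 7.43 ± 0.22 in the hyperlipidemic and 6.89 ± 0.49 in the normal group (SD, n = 4 each), a difference of 0.54 that did not pass (exact permutation, two-sided: p = 0.114, 0.457 after adjustment over 4 measures). With each library left out in turn the difference ran from 0.36, without normal replicate 4, to 0.68, without normal replicate 1. The groups overlapped, since normal replicates 1 and 3 (7.32 and 7.28) lay among the hyperlipidemic libraries (7.15 to 7.61). The blood-cell rows summed to 38.5% of the rno- signal in normal replicate 2 and to 14.2% in normal replicate 4, the 2 libraries with a high 3p share. A link between the 3p share and blood cells was not tested.

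For miR-26a the 3p share ran from 0.0018% to 0.011% in hyperlipidemic and from 0.0036% to 0.025% in normal libraries. The exact 95% interval of the summed reads was 0.0048% to 0.011% in hyperlipidemic and 0.0064% to 0.017% in normal libraries, again for counting error only. The log2 ratio of 5p to 3p was 13.7 ± 0.68 in the hyperlipidemic and 13.2 ± 1.04 in the normal group (SD, n = 4 each; exact permutation, two-sided: p = 0.400, 0.486 after adjustment over 4 measures). The difference of 0.54 became 0.12 without normal replicate 2, 0.93 without normal replicate 4 and 0.077 with 10 times the pseudocount. On 1 to 12 reads a library no difference in arm use was detectable for miR-26a.

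**Figure D3:**
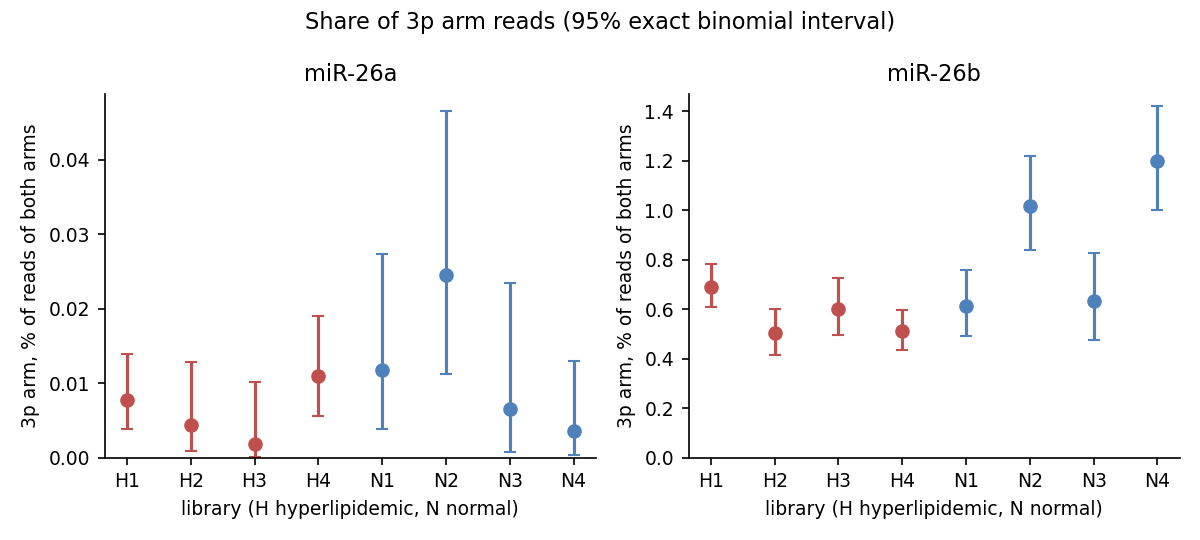
Share of the 3p arm in the reads of both arms, in percent, for miR-26a and miR-26b in each hyperlipidemic (H) and normal (N) library, with exact 95% binomial intervals for counting error. For miR-26b the normal replicates 2 and 4 lie at 1.02% and 1.20% and the other 6 libraries between 0.503% and 0.692%.

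Taken as a family, the 4 rows held 4.13%, 3.28%, 3.02% and 4.76% of the rno- signal in hyperlipidemic libraries, against 3.65%, 3.86%, 4.64% and 4.89% in normal libraries. Hyperlipidemic libraries averaged 3.80% ± 0.800 and normal libraries 4.26% ± 0.597 (SD, n = 4 each; exact permutation, two-sided: p = 0.400, 0.486 after adjustment over 4 measures). The difference of -0.463 percentage points ran from -0.784 without hyperlipidemic replicate 4 to -0.203 without hyperlipidemic replicate 3. The blood-cell rows are part of the same total. In bulk bone, fewer cells of a type and less RNA per cell cannot be told apart.

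As a share of the rno- signal without the blood-cell rows, the family held 7.52%, 5.79%, 6.43% and 7.26% in hyperlipidemic libraries, against 5.93%, 6.29%, 5.69% and 5.70% in normal libraries. The direction was turned round, with 6.75% ± 0.791 in the hyperlipidemic and 5.90% ± 0.280 in the normal group (SD, n = 4 each), and it did not pass either (difference 0.847 percentage points, exact permutation, two-sided: p = 0.114, 0.229 after adjustment over 4 measures). Without normal replicates 3 and 4 the share of the whole rno- signal differed by 0.041 percentage points. The part of blood cells in the values of the family was not tested beyond these rescaled values.

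**Figure D4:**
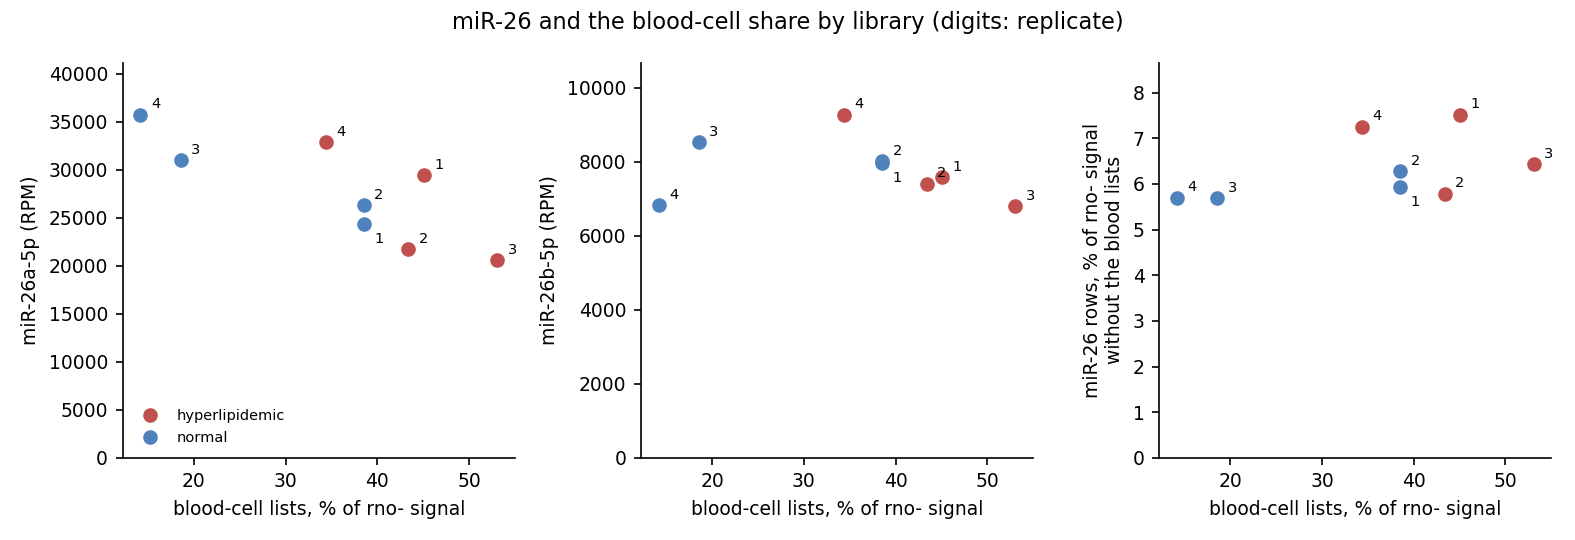
Values of miR-26a-5p and miR-26b-5p in RPM, and the share of the 4 miR-26 rows in the rno- signal without the blood-cell rows in percent, against the percent of the rno- signal in the blood-cell rows, 1 point a library with its replicate number. Normal replicates 3 and 4 lie apart at 18.5% and 14.2% on the horizontal axis, with miR-26a-5p at 31011 and 35747 RPM and miR-26b-5p at 8528 and 6825 RPM. Hyperlipidemic replicate 1, at 45.1%, has more miR-26a-5p (29414 RPM) than normal replicate 1 (24367 RPM) and normal replicate 2 (26283 RPM), both at 38.5%. Hyperlipidemic replicates 2 and 3, at 43.4% and 53.1%, have less than either (21747 and 20586 RPM). Hyperlipidemic replicate 4, at 34.4%, has 32898 RPM.

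The miRNAs whose profile over the 8 libraries was most like that of each 5p arm were found by the SD of the log2 ratio, which is small where a pair keeps a steady ratio. For miR-26a-5p these were miR-674-3p (SD 0.19), miR-30c-5p (0.20), miR-28-5p (0.21), miR-151-5p (0.22) and miR-3559-5p (0.22), beside a median of 0.60 over the other 395 miRNAs. For miR-26b-5p these were miR-139-5p (0.10), miR-362-3p (0.14), miR-29a-3p (0.15), let-7c-2-3p (0.17) and let-7a-1-3p (0.17), the last pair with almost the same values in each library. MiR-26b-5p was 20th in likeness to miR-26a-5p (SD 0.27) and miR-26b-3p 31st (0.33). MiR-26b-3p was further from its own 5p arm (SD 0.45, 121st of 395). The libraries share their scaling and their blood-cell content, and these SDs are a description without a test.

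Of these, miR-30c-5p, a member of a family tied to fat cell differentiation, was the most abundant match of miR-26a-5p. It stood at 12257 ± 1522 RPM (SD, n = 4) in hyperlipidemic libraries, against 16086 ± 1279 RPM (SD, n = 4) in normal ones, a log2 fold of -0.40 ± 0.19 (SE, adjusted p = 0.294 by limma). MiR-29a-3p, which targets collagen transcripts, stood at 9178 ± 1800 RPM (SD, n = 4) in hyperlipidemic libraries, against 9268 ± 460 RPM (SD, n = 4) in normal ones, a log2 fold of -0.03 ± 0.20 (SE, adjusted p = 0.935 by limma), with a fold near 0 like that of miR-26b-5p. Next to miR-26a-5p in mean level were miR-142-3p, a leukocyte miRNA, at 41609 RPM over the 8 libraries and miR-99a-5p at 26693 RPM. MiR-26b-5p, with a mean of 7800 RPM over the 8 libraries, lay between let-7c-5p at 7804 RPM and miR-29b-3p at 7378 RPM.

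MiRNAs described as acting on the same differentiation steps as miR-26 did not pass either. Of 29 rows described as promoting osteoblasts, the miR-26 rows among them, 24 were tested and none passed by limma or by voom, with 2 higher and 2 lower at an unadjusted p under 0.05, a share near the 15.7% of all catalogued miRNAs tested. Their log2 folds lay below 0 for 16 of 24, with a median of -0.13, beside -0.20 over all catalogued miRNAs tested. The tally turned round with median-of-ratios scaling and without the blood-cell rows, where 10 of 24 lay below 0. Of the most abundant, miR-21-5p, an miRNA of wounded tissue, stood at 36230 ± 6760 RPM (SD, n = 4) in hyperlipidemic libraries, against 69100 ± 22806 RPM (SD, n = 4) in normal ones, a log2 fold of -0.89 ± 0.28 (SE, adjusted p = 0.153 by limma). MiR-29b-3p, a sister of miR-29a-3p, stood at 10011 ± 2425 RPM (SD, n = 4) in hyperlipidemic libraries, against 4745 ± 3925 RPM (SD, n = 4) in normal ones, a log2 fold of 1.56 ± 0.65 (SE, adjusted p = 0.257 by limma). Its 2 lowest values, 1440 and 1256 RPM, were those of normal replicates 3 and 4, in which miR-26a-5p was not low.

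Of 61 rows described as inhibiting osteoblasts 49 were tested and none passed by limma or voom (0 higher and 1 lower at an unadjusted p under 0.05, beside 15.7% of all catalogued miRNAs), with 35 below 0 and a median of -0.38. Its most abundant member was miR-30e-5p, at 20128 ± 1636 RPM (SD, n = 4) in hyperlipidemic libraries, against 28684 ± 6821 RPM (SD, n = 4) in normal ones, a log2 fold of -0.49 ± 0.22 (SE, adjusted p = 0.281 by limma). Of 67 rows tied to fat cell differentiation, again with the miR-26 rows, 61 were tested and none passed by limma or voom (1 higher and 6 lower at an unadjusted p under 0.05, again beside 15.7%), with 43 below 0 and a median of -0.41. The fat cell list was not split into miRNAs that promote and miRNAs that restrain, so its median has no direction in differentiation. It shares rows with both osteoblast lists, such as the miR-30 rows of the inhibiting list, so the tallies are not separate results. MiR-27a-3p, which restrains fat cell differentiation, stood at 26513 ± 3603 RPM (SD, n = 4) in hyperlipidemic libraries, against 19515 ± 7709 RPM (SD, n = 4) in normal ones, a log2 fold of 0.52 ± 0.31 (SE, adjusted p = 0.357 by limma). These splits also depend on the scale: both with median-of-ratios scaling and without the blood-cell rows, rows at an unadjusted p under 0.05 were 2 higher and 0 lower among those inhibiting osteoblasts, 3 higher and 4 lower among those of fat cell differentiation, and 3 higher and 1 lower among those promoting osteoblasts. With median-of-ratios scaling the medians were 0.13 for promoting, -0.12 for inhibiting and -0.15 for fat cell rows, beside 0.05 over catalogued miRNAs.

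**Figure D5:**
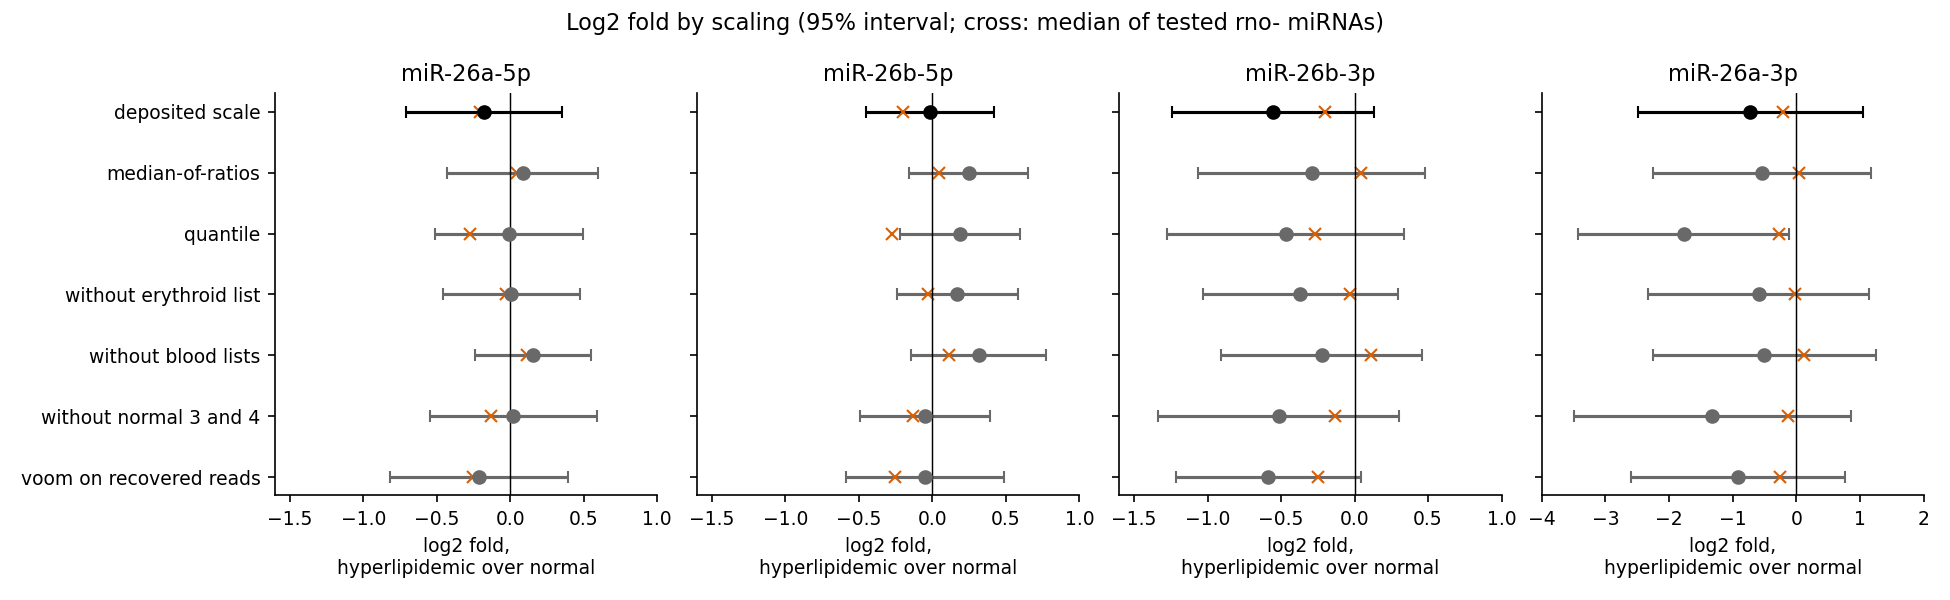
Log2 fold of hyperlipidemic over normal libraries with 95% intervals for the 4 miR-26 rows (wider axis for miR-26a-3p) on the deposited scale and under 6 alternatives, with the median of the catalogued miRNAs tested as a cross. The interval includes 0 in each case shown except miR-26a-3p with quantile normalization (-3.43 to -0.11), and the fold of miR-26b-5p runs from -0.05 to 0.32 while that of miR-26b-3p stays below 0 (-0.59 to -0.22).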

How the data were processed

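Small RNA libraries were made with adapter ligation at both RNA ends, cut from a gel at 140 to 160 bp and read as 50-bp single ends, per the labels' protocols. Bcl2fastq 1.8.4 and the build Rnor_6.0 come from the submitters' processing notes; aligner, miRNA reference and counting method, not given in the sources used here, could change how reads are split between miR-26a and miR-26b. The deposited signal, 1 value per library, was named FPKM by the authors but is in reads per 1000000 (RPM) of its class. Low values were whole multiples of 1 step per class and library (100% of values up to 20 reads, within 0.1 read), which gave back whole reads. Deposited too are the authors' ratio (a fold), its log2, a p-value and an adjusted p-value, from a test no source used here names.

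Groups were read from the labels' source names and replicate numbers from the titles. Limma 3.58.1 (R 4.3.3, eBayes with a variance trend, two-sided) was run on log2(value + 0.475), the pseudocount being each library's smallest positive value, as a median of the 8. Rows above 0 in at least 4 libraries with a mean of at least 5 pseudocounts were tested, and p-values were adjusted by Benjamini-Hochberg over all 696. The limma code was tested on simulated data. Ratios and shares were compared by exact permutation of libraries. Because 2 scales stand in each column, the planned edgeR and DESeq2 alternatives were not run, and voom on the recovered rno- reads took their place. Same-numbered libraries did not deviate together. The members, the lists and the naming rule (members, seed sharers, 5 most alike, neighbours in level, abundant list members) were chosen with earlier results of these data known.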

Additional observations from a re-analysis of the deposited data

How the results depend on the processing

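No miR-26 row, ratio or share passed its threshold under any alternative run, but signs and sizes moved. For the ratios and the share this says little. With so few libraries a single measure could not pass after adjustment over 4 measures, in the main comparison or in any alternative. The log2 fold of miR-26a-5p (-0.18) became 0.085 with median-of-ratios scaling, 0.0075 without the erythroid rows, 0.16 without the blood-cell rows and 0.020 without normal replicates 3 and 4, and ran from -0.30 to -0.07 with each library left out in turn. That of miR-26b-5p (-0.02) became 0.25, 0.19 with quantile normalization, 0.17 without the erythroid rows and 0.32 without the blood-cell rows, and ran from -0.10 to 0.044 over the libraries left out. MiR-26b-3p stayed below 0 in all 19 alternatives (-0.69 to -0.22). That of miR-26a-3p (-0.72) ran from -1.77 with quantile normalization (unadjusted p = 0.0387 by limma) to -0.25 with 10 times the pseudocount, and the log2 ratio of its hairpin's 5p to 3p arm (0.54) from 0.077 with 10 times the pseudocount to 1.34 without normal replicates 3 and 4. The log2 ratio of miR-26a-5p to miR-26b-5p (-0.16) became 0.069 without normal replicates 3 and 4 and ran from -0.26 to 0.0029 over the libraries left out. The summed share (-0.463 percentage points) became 0.041 without normal replicates 3 and 4, 0.178 without the erythroid rows and 0.847 without the blood-cell rows, and ran from -0.784 to -0.203 over the libraries left out. The cause of these changes was not tested. Of all miRNAs, 5 passed on the deposited scale, 12 with 10 times the pseudocount, 9 with quantile normalization, 3 among rno- rows alone, 0 with a replicate block (113 at an unadjusted p under 0.05), 0 by voom (82) and 0 to 12 with each library left out in turn. Same-numbered libraries had correlations of deviations of 0.14, -0.37, -0.32 and -0.01, so the block pairs only numbers. Depth limits miR-26a-3p (1 to 12 reads a library).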
